A study of Mus musculus with 14 samples.

Results

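The inhibitors of cyclin-dependent kinases (CDKs) and the pocket proteins were followed in lung and in lung tumors driven by c-Myc. They comprised 10 genes, chosen by name: Cdkn1a, Cdkn1b and Cdkn1c of the Cip/Kip family, Cdkn2a, Cdkn2b, Cdkn2c and Cdkn2d of the INK4 family, and the pocket proteins Rb1, Rbl1 and Rbl2. The members were all features of the array whose only annotated symbol was 1 of these names, which gave 13 of 12422 probe sets (sets of short probes, not all of them specific to a single transcript), and 10 of the 8251 gene symbols on the array. RNA was hybridised to 14 Affymetrix Murine Genome U74v2 arrays, 1 per animal. Control lung was taken from 4 non-transgenic mice. Hemizygous SPC/myc mice gave the tumors and carry a c-Myc transgene under the human surfactant protein C promoter, active in the respiratory epithelium. They were papillary lung adenocarcinomas, taken as 3 pools of small tumors (1 mm, 3 to 4 tumors to a pool), 4 middle-sized tumors (4 to 5 mm) and 3 large tumors (from 10 mm). All mice were on the CD2F1-(DBA/2xBalb/C) background and were 9 to 13 months old. The 3 tumor sizes were compared with the same 4 control lungs. In such bulk RNA, fewer cells of a type and less RNA per cell cannot be told apart.

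Cells pass from G1 into DNA synthesis when cyclin D with Cdk4 or Cdk6, and then cyclin E with Cdk2, phosphorylate the pocket proteins. Unphosphorylated Rb1 holds the activating E2F factors, and Rbl1 and Rbl2 (p107 and p130) bind the repressive ones, so that the genes of DNA synthesis stay shut. INK4 inhibitors bind Cdk4 and Cdk6 only, whereas Cip/Kip inhibitors bind the cyclin and the kinase together. Myc is known to induce cyclin D and Cdk4, to repress Cdkn1a and Cdkn2b with the zinc finger factor Miz1, and to induce the Arf product of Cdkn2a.

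The authors scaled the arrays to a common mean signal, and 13 of the 14 had a mean of 249 to 250 without the highest and lowest 2%, and no value at 0. On the array of middle tumor 3 that mean was 195, and 25.2% of all signals stood at 0 or within 1e-06 of it. These were treated as missing, which removed Cdkn2c and 1 further probe set each of Cdkn1b and Rb1 on that array. Arrays of the same group correlated at r = 0.869 to 0.983 on the log2 scale. The Myc signal was 29.7 ± 5.4 (SD, n = 4) in controls and 325 to 2165 in the tumors. Signals were tested on the log2 scale after all values below 70, the authors' limit for an expressed gene, had been set to 70 (the floor). Calls were made at an adjusted p under 0.05 in a limma model over 6914 probe sets, and 9 of the 10 members passed its filter. Both probe sets of Cdkn1b (p27) stayed below 70 on every array, between 7.12 and 53.1, and were not tested.

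Of the 9 members tested, 1 was higher and 3 were lower in all tumors against control lung. Cdkn1c rose, while Cdkn2b, Cdkn2d and Rb1 fell. Over the whole array 44.6% of the probe sets were called in that comparison, 23.6% higher and 21% lower, so that 4 of 9 members is a share near that of all genes. The median log2 fold change of the 9 members was -0.16, beside 0.037 for all probe sets tested. Every tumor lay above every control lung for 1 member, Cdkn2a, and below for 1, Rb1, where 11% and 12.7% of all probe sets did so. Cdkn2a was below 70 in all control lungs and passed the filter only through tumors, so it could have separated in no other direction.

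**Figure D1:**
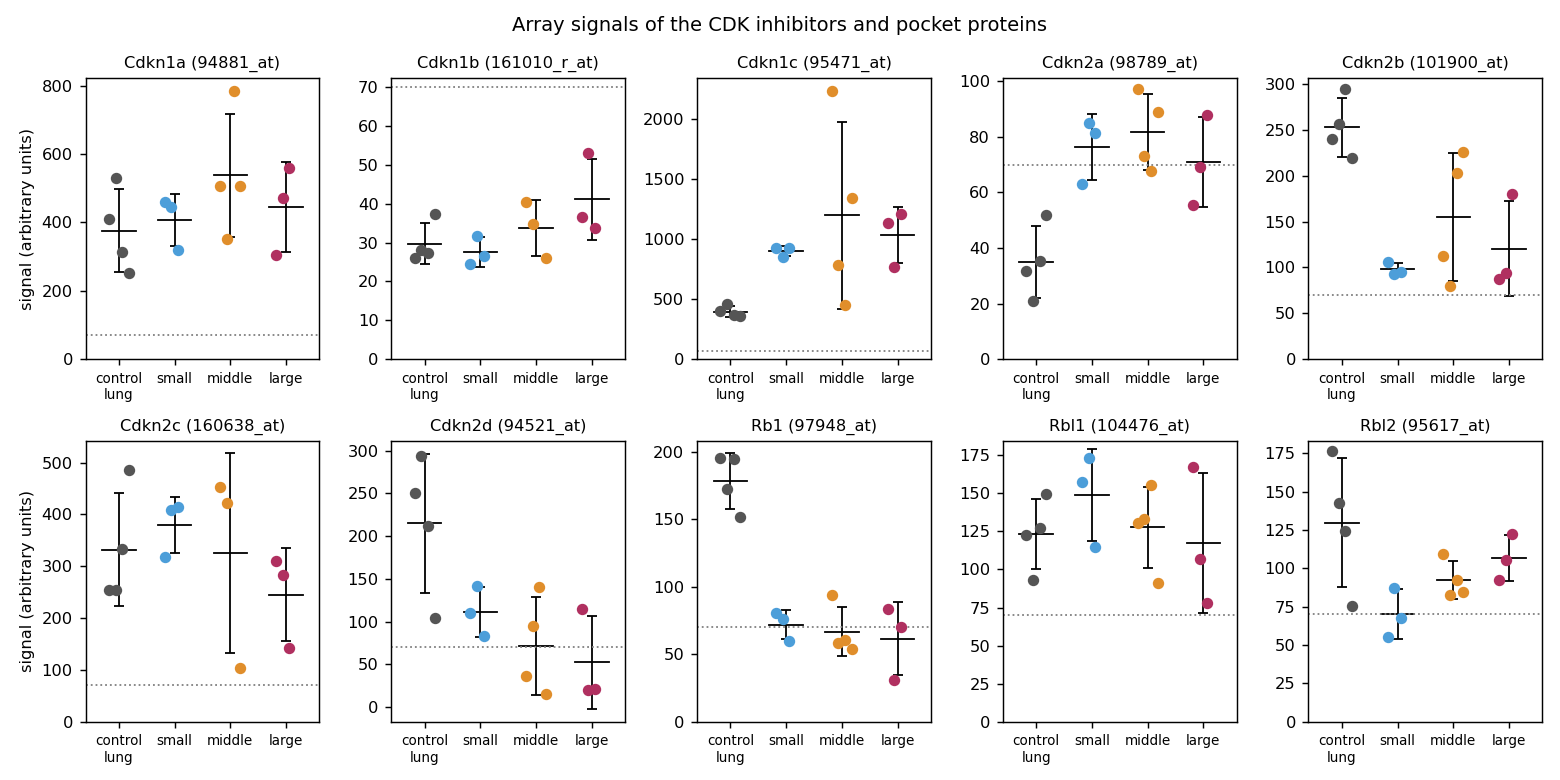
Signal of each member (vertical axis, linear, arbitrary units) on each array of control lung and of small, middle and large tumors, 1 panel per gene. Points are arrays, horizontal bars are group means, error bars are SD, and the dotted line is the floor of 70. Rb1 is the panel in which all 10 tumors lie below all 4 control lungs, and Cdkn2a the panel in which all lie above. A value of middle tumor 3 that was treated as missing is not drawn.

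Cdkn1c (p57), an inhibitor expressed from the maternal allele that holds back the cycle in developing tissues, was the Cip/Kip member that changed. It lies on chromosome 7 at 143458339 to 143461059 (GRCm38.p6). Its signal in control lung was 399, 456, 366 and 355. The pools of small tumors had 924, 850 and 929, which is a narrow range. The middle tumors had 2234, 784, 448 and 1342, and the large tumors had 1134, 772 and 1211. Middle tumor 3, at 448, was the single tumor within the range of the control lungs, and middle tumor 1 had the highest value. The mean rose from 394 ± 45.2 (SD, n = 4) to 1063 ± 483 (SD, n = 10). On the log2 scale the difference was 1.32 ± 0.30 (SE), with an adjusted p of 0.00234 in the limma fit. The rise passed the test in small tumors (log2 fold change 1.20, adjusted p = 0.0240), middle tumors (1.37, adjusted p = 0.00876) and large tumors (1.38, adjusted p = 0.0110). The call in middle tumors was lost in the methods' unpaired test after adjustment (adjusted p = 0.116). In small tumors the adjusted p moved above the threshold, to between 0.0505 and 0.0689, without control lung 3, control lung 4 or any 1 of the 3 pools, while the log2 fold change stayed between 1.15 and 1.24.

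Cdkn1a (p21), the inhibitor induced by p53, did not pass the test. It lies on chromosome 17 at 29090979 to 29100722. Its signal was 409, 529, 313 and 251 in control lung, 459, 444 and 318 in small, 507, 350, 785 and 506 in middle, and 303, 472 and 560 in large tumors. The groups overlapped throughout. The log2 difference was 0.31 with a 95% interval of -0.19 to 0.81 (adjusted p = 0.311). The second probe set of Cdkn1a gave a log2 difference of 0.11 (adjusted p = 0.912 in a fit over all 12422 probe sets). The interval thus spans both a small fall and a rise of up to 0.81.

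The INK4 genes changed unequally. Cdkn2b (p15), which transforming growth factor beta is known to induce, fell. Its signal was 240, 256, 295 and 220 in control lung. It was 106, 92.9 and 95.3 in the small tumor pools, 112, 80.2, 203 and 226 in the middle tumors and 87.3, 94.4 and 180 in the large tumors. Middle tumor 4 was the 1 tumor within the control range, and middle tumor 3 and large tumor 3 lay just under it, whereas the other 7 tumors were at 112 or less. Mean signals were 253 ± 31.9 (SD, n = 4) in controls and 128 ± 53.7 (SD, n = 10) in tumors, a log2 difference of -1.11 ± 0.26 (SE; adjusted p = 0.00295). It was -1.36 in small (adjusted p = 0.00555), -0.82 in middle (adjusted p = 0.0557) and -1.14 in large tumors (adjusted p = 0.0146). The call in large tumors was lost without large tumor 1 (adjusted p = 0.0700) or large tumor 2 (adjusted p = 0.0632). In middle tumors the adjusted p fell to 0.0329 without middle tumor 3, 0.0205 without middle tumor 4 and 0.0381 without large tumor 3.

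Cdkn2d (p19Ink4d, a product unrelated to the Arf protein of Cdkn2a) fell as well. Control lung had signals of 250, 294, 212 and 104. Small tumors had 110, 142 and 83.3, middle tumors 36.4, 94.7, 141 and 14.9, and large tumors 115, 20.2 and 21.5. Control lung 4 was lower than 4 of the 10 tumors, and 4 tumors fell below 70, among them 2 of the 3 large ones. Mean signals were 215 ± 81.1 (SD, n = 4) in controls and 77.9 ± 50.6 (SD, n = 10) in the tumors. The log2 difference was -1.11 ± 0.27 (SE; adjusted p = 0.00400) with the floor and -1.76 without it, since the floor shortens a fall below 70. By size it was -0.88 in small (adjusted p = 0.0620), -1.16 in middle (adjusted p = 0.0135) and -1.28 in large tumors (adjusted p = 0.00985). Both calls were lost in the methods' unpaired test after adjustment (adjusted p = 0.103 and 0.0862). Without control lung 4 the value in small tumors was -1.20 and passed (adjusted p = 0.00781), and without middle tumor 3 its adjusted p was 0.0481.

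Cdkn2a, which codes for p16Ink4a and for Arf, the inhibitor of Mdm2, had a low signal throughout. Its values were 31.5, 20.9, 35.3 and 51.9 in control lung, 63.0, 85.0 and 81.3 in small, 97.3, 73.2, 67.6 and 88.9 in middle, and 55.6, 69.2 and 87.8 in large tumors. Thus every tumor exceeded every control lung, but all control lungs and 4 tumors were below 70. With the floor, which sets such values equal, the log2 difference was 0.17 (95% interval -0.06 to 0.39, adjusted p = 0.217). Without the floor it was 1.18 ± 0.25 (SE; adjusted p = 0.00177 over all 12422 probe sets, of which 31.7% were called), and 1.19, 1.29 and 1.07 in small, middle and large tumors. The means were 34.9 ± 12.8 (SD, n = 4) and 76.9 ± 13.2 (SD, n = 10). Whether the rise is called therefore depends on how signals under the authors' limit are used. Which of the 2 products the probe set reads was not resolved here.

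Cdkn2c (p18) did not pass, with a signal of 254, 255, 334 and 485 in control lung and a range of 103 to 452 over 9 tumors. The log2 difference was -0.16 (95% interval -0.93 to 0.61, adjusted p = 0.759). All 3 large tumors, at 309, 283 and 143, were below the lowest small tumor pool at 317, and the middle tumors spread from 103 to 452.

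Cdkn2a and Cdkn2b are neighbours on chromosome 4, at 89274473 to 89294619 and 89306289 to 89311032 (GRCm38.p6), with 11669 bases between them, and both are read from the minus strand. Their upstream sequences are shown because the mean signals of these adjacent genes differed from control lung in opposite directions, although the Cdkn2a difference passed the test only with a lower floor or none, and that of Cdkn2d, on chromosome 9 at 21288459 to 21291421, because it fell with Cdkn2b. The promoter sequences used here (RefSeq, GRCm38.p6) covered 8 of the 10 members with 11 starts. Each window is the 250 bases before a start on the gene's own strand, from the C57BL/6J reference and not from the strains used. Capitals mark the E-box CACGTG and its variants CACGCG and CGCGTG, to which Myc with Max can bind, the E2F letters TTTCCCGC, TTTCGCGC, TTTGCCGC and TTTGGCGC, and the GC box GGGCGG, each searched on both strands.
Cdkn2a, upstream start, chr4:89294620-89294869, minus strand: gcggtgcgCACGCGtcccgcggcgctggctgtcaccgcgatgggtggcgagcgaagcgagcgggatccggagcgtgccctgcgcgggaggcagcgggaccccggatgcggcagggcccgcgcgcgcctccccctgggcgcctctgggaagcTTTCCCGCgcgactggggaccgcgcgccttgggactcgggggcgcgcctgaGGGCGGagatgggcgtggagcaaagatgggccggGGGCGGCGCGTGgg
Cdkn2b, chr4:89311033-89311282, minus strand: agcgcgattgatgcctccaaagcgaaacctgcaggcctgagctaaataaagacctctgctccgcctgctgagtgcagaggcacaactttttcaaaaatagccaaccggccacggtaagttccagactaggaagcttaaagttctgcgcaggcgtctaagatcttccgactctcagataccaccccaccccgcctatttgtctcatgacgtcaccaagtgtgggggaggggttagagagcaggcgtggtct
Cdkn2d, chr9:21291210-21291459, minus strand: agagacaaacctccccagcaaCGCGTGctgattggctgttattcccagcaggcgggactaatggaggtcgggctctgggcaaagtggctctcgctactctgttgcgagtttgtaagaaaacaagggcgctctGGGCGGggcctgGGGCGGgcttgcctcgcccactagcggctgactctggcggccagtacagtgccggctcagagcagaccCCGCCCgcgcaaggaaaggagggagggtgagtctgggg
The Cdkn2a window before the upstream start, that of the Arf transcript, held an E-box variant at -242 and another at -8, E2F letters at -99 and GC boxes at -48 and -14. The last GC box and the second variant stand side by side without sharing a letter. The Cdkn2b window held none of these letters, and neither did the window before the other, downstream start of Cdkn2a, which is not printed. The Cdkn2d window held 1 E-box variant at -229 and 3 GC boxes at -118, -106 and -38. Of all 32851 windows of this length, 6.02% held CACGTG, 7.62% an E-box variant, 1.86% E2F letters and 32.7% a GC box. No window of a member held CACGTG. A match shows letters only, and binding was not measured on these arrays.

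Rb1, the founding pocket protein and the product lost in retinoblastoma, had the smallest adjusted p of the members. It lies on chromosome 14 at 73192858 to 73325951. Control lung had signals of 196, 173, 194 and 152. Small tumors had 80.2, 76.0 and 59.6, middle tumors 93.6, 58.0, 60.7 and 54.0, and large tumors 83.2, 31.0 and 70.3. All 10 tumors lay below all 4 control lungs. Mean signals were 179 ± 20.9 (SD, n = 4) in controls and 66.7 ± 17.9 (SD, n = 10) in the tumors, a ratio of 0.373. With the floor the log2 difference was -1.25 ± 0.12 (SE; adjusted p = 9.14e-07), and it was -1.24, -1.24 and -1.26 in small, middle and large tumors, all called. Of the 10 tumors, 5 were below 70, and the floor sets these equal, which narrows the spread. Without the floor the difference was -1.47 ± 0.25 (SE; limma adjusted p = 0.000357 over all 12422 probe sets). It was then -1.32, -1.45 and -1.65 in small, middle and large tumors.

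A second probe set of Rb1 gave the same direction at a lower signal. It read 78.6, 80.2, 76.9 and 65.3 in control lung and between 22.0 and 42.9 in the 9 tumors with a value. All of these tumors were below the floor, so the difference with it was only -0.12 (adjusted p = 0.00939 over all probe sets, of which 25.6% were called). Without the floor it was -1.29 ± 0.25 (SE; adjusted p = 0.00125).

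Rbl1 (p107), itself a gene that E2F activates, did not pass. Its signals were 123, 93.2, 128 and 150 in control lung, 158, 173 and 115 in small, 131, 133, 156 and 91.3 in middle, and 167, 107 and 77.8 in large tumors. The groups overlapped, and the log2 difference was 0.06 (95% interval -0.38 to 0.51, adjusted p = 0.834). Its upstream window is printed because it was 1 of 2 members' windows with E2F letters, marked together with a GC box at -226.
Rbl1, chr2:157204535-157204784, minus strand: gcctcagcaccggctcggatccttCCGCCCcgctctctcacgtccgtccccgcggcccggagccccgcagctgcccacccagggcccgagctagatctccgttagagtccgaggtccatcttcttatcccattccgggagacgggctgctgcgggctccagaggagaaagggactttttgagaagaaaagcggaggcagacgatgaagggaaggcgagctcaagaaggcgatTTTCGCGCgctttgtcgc
The E2F letters TTTCGCGC began at -18.

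Rbl2 (p130), the pocket protein of resting cells, lies on chromosome 8 at 91070057 to 91123844. Its signals were 177, 142, 124 and 75.5 in control lung, 55.3, 87.3 and 67.6 in small, 109, 82.7, 92.1 and 84.5 in middle, and 92.5, 105 and 122 in large tumors. Control lung 4 was below 8 of the 10 tumors, and the other 3 control lungs were above every tumor. The log2 difference over all tumors was -0.46 ± 0.18 (SE; adjusted p = 0.0519), and it was -0.70 without control lung 4 (adjusted p = 0.00157). In small tumors the fall passed, at -0.72 (adjusted p = 0.0264). That call was lost without control lung 1, control lung 2, small tumor pool 1 or small tumor pool 3 (adjusted p = 0.0665 to 0.0904). Middle and large tumors differed from control lung by -0.44 (adjusted p = 0.143) and -0.23 (adjusted p = 0.478).

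In small tumors 4 of 9 members were called, namely Cdkn1c higher and Cdkn2b, Rb1 and Rbl2 lower, where 36.7% of all probe sets were called. In middle tumors 3 of 9 were called (Cdkn1c, Cdkn2d and Rb1), with 32.2% of all probe sets. In large tumors 4 of 9 were called (Cdkn1c, Cdkn2b, Cdkn2d and Rb1), with 38%. Because the 3 comparisons share the control lungs, these lists are not independent of each other.

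**Figure D2:**
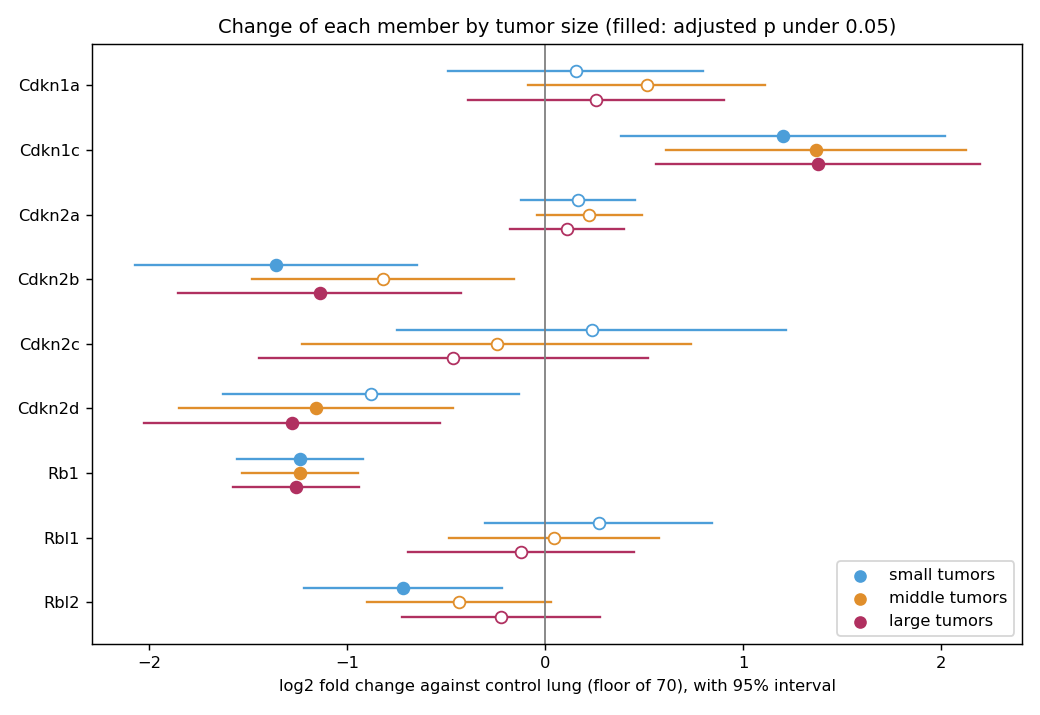
Log2 fold change of each tested member against control lung (horizontal axis, floor of 70) by tumor size, with the 95% interval of the limma fit as a line. Filled points passed an adjusted p under 0.05. Cdkn1c and Rb1 are filled at all 3 sizes, and the intervals of the sizes overlap for each gene.

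None of the 9 was called in large against small tumors, where 0.0289% of all probe sets were called, in middle against small tumors (0%) or in large against middle tumors (0%), and none had an unadjusted limma p under 0.05 either. The methods' unpaired test without adjustment called 1, Rbl2 in large against small tumors. The smallest adjusted p over the 3 comparisons was 0.633, again for Rbl2 in large against small tumors, with a log2 difference of 0.49 and a 95% interval of -0.04 to 1.03. For Cdkn1c the interval of that difference was -0.70 to 1.05, for Cdkn2b -0.54 to 0.98 and for Cdkn2d -1.20 to 0.40, so that for these 3 genes a difference of about 1 on the log2 scale in at least 1 direction lay within the interval. With the floor, which sets values below 70 equal, the interval was narrower for Rb1 (-0.36 to 0.32) and Cdkn2a (-0.36 to 0.25). Without the floor the SE of this difference rose from 0.16 to 0.34 for Rb1 and from 0.14 to 0.34 for Cdkn2a. The differences were then -0.34 and -0.12, so the narrow intervals depend on the floor. All 3 large tumors lay above all 3 small tumor pools for Rbl2. For Cdkn2c they lay below the pools, by 309 against 317 at the nearest. How many of all probe sets separate in this way was not counted. An exact test with 3 arrays on each side cannot reach 0.05.

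Some members varied within the tumors along with a marker of dividing cells. Mki67, which marks dividing cells, had signals of 14.8 to 33.8 in control lung, 393 to 798 in the small tumor pools, 50.6 to 435 in the middle and 33.7 to 626 in the large tumors. Large tumor 3 and middle tumor 4 thus had little Mki67, and both also had the lowest Cdk1 of the tumors, at 90.8 and 92.4. Over the 10 tumors, 9 relations of a member with Mki67 were computed on log2 signals, with permutation tests and adjustment over the 9. Rbl1 rose with Mki67 (r = 0.830, permutation p = 0.0034, adjusted 0.0192; rho = 0.770, permutation p = 0.0116, adjusted 0.0348). Cdkn2d did so by r (r = 0.818, permutation p = 0.00426, adjusted 0.0192) and less by rank (rho = 0.685, permutation p = 0.0337, adjusted 0.0758).

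Cdkn2b went the other way (r = -0.783, permutation p = 0.0111, adjusted 0.0332; rho = -0.806, permutation p = 0.00729, adjusted 0.0328). Cdkn1a did so by rank (rho = -0.842, permutation p = 0.0036, adjusted 0.0324) but not by r (r = -0.556, permutation p = 0.0956, adjusted 0.157), because middle tumor 3 had the highest Cdkn1a at a medium Mki67, and without that tumor r was -0.746. Large tumor 3 and middle tumor 4 lay farthest from the median of Mki67. When they were left out, r was 0.446 for Rbl1, 0.619 for Cdkn2d, -0.500 for Cdkn2b and -0.604 for Cdkn1a. Cdkn2c had r = 0.784 over 9 tumors (permutation p = 0.0193, adjusted 0.0434; rho = 0.433, permutation p = 0.249, adjusted 0.32), and without its 2 farthest tumors r was -0.118, so that relation rests on them. Cdkn1c, Cdkn2a, Rb1 and Rbl2 gave r of -0.409, -0.545, 0.0936 and -0.518, with adjusted permutation p of 0.157 to 0.80. Among the 7 middle and large tumors alone, r was 0.863 for Rbl1, 0.758 for Cdkn2d, -0.753 for Cdkn2b, -0.807 for Cdkn2a, -0.547 for Cdkn1a, -0.478 for Rbl2, -0.399 for Cdkn1c and -0.0464 for Rb1, and over 6 of them 0.741 for Cdkn2c. Cdkn2d was below 70 in 4 of these tumors, where the signal is least precise.

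**Figure D3:**
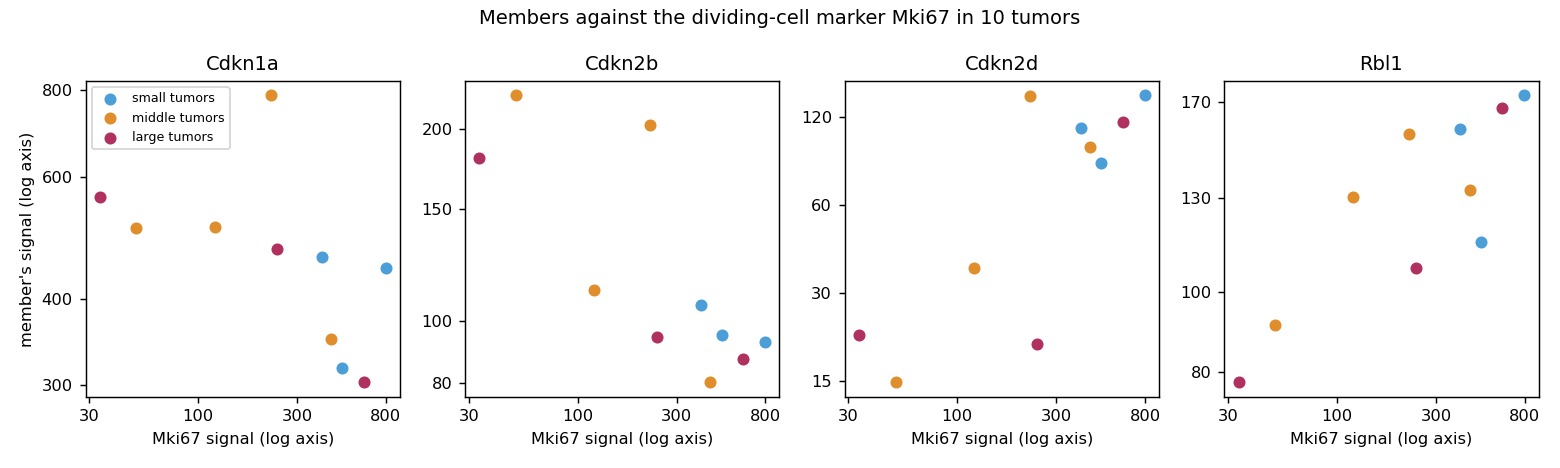
Signal of Cdkn1a, Cdkn2b, Cdkn2d and Rbl1 (vertical axes) against the signal of Mki67 (horizontal axes) in 10 tumors, all on log axes and coloured by tumor size. Cdkn2b is high in 2 of the 3 tumors with the least Mki67, where Cdkn2d and Rbl1 are low. The third tumor with high Cdkn2b is middle tumor 3.

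The tumor signals of Cdkn1c and Cdkn2b were compared with those of 3831 genes at or above 70 on all 10 tumors. Most like Cdkn1c were Rgl2 (r = 0.920) and Bmp4 (r = 0.919). Most like Cdkn2b were Dusp1 (r = 0.951) and Txnrd1 (r = 0.935). These are the largest of many correlations over 10 tumors and are given as a description. Without the 2 tumors farthest from the median of Cdkn1c, r was 0.733 for Rgl2 and 0.856 for Bmp4. Treated in the same way, Cdkn2b had r = 0.906 with Dusp1 and 0.797 with Txnrd1. Cdkn2d and Rb1 were below 70 in some tumors and were not compared.

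The partners of these inhibitors and pocket proteins were counted in lists. In all tumors against control lung, 23.6% of all probe sets were called higher and 21% lower. The counts of this and all later lists stand beside these shares. The list of G1 cyclins and kinases also held Cdc25a, Mnat1 and the S phase cyclin Ccna2. Of its 10 genes, 5 were higher and 2 lower (median log2 fold change 0.45, beside 0.037 for all probe sets). Ccna2, cyclin A, rose by 1.45 on the log2 scale (adjusted p = 0.00106), Cdk4 by 0.95 (adjusted p = 0.000100) and Ccne1, cyclin E, by 0.66 (adjusted p = 0.0339). Ccnd3, a D cyclin, fell by 0.79 (adjusted p = 0.000362). Of the other D cyclins, Ccnd1 rose by 0.58 (adjusted p = 0.00203) and Ccnd2 changed by -0.49 (adjusted p = 0.00737). The mean signal of Ccnd2 was 102 in control lung and 18.1 in the tumors, so the floor shortens its fall. Of 3 E2F and DP factors, only Tfdp1, the partner with which E2F binds DNA, was called, at 1.52 (adjusted p = 4.29e-05).

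Of 15 genes that E2F is known to activate, 13 were higher and none was lower (median 0.66). Named by size, they were thymidine kinase Tk1 (1.58), Rrm1 of ribonucleotide reductase (1.20), the origin licensing factor Cdt1 (1.17) and the helicase subunit Mcm7 (1.15). By size, 13 of the 15 were called in small, 4 in middle and 7 in large tumors, all higher. At these sizes 1379, 1089 and 1366 of all 6914 probe sets were called higher. Mean control signals of Rfc4, Rrm2, Cdc6 and Pola1 in this list were 26.0 to 56.5, under the floor, so these genes could not be called lower. Of 10 partners of the pocket proteins, 2 were higher and 1 was lower (median 0.23). These were Lin9 of the DREAM complex (0.89), Rbbp7 (0.68) and Rbbp9 (-0.63).

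Proteins that turn over the inhibitors gave 4 higher and 2 lower of 7 (median 0.70). Cks1b, which the Skp2 ligase needs to bind p27, rose by 2.87 on the log2 scale (adjusted p = 7.02e-07) from a mean signal of 125 to 932. Skp1 (0.98) and Cdc34 (0.82) were also higher, and Uhmk1, a kinase of p27, was lower (-0.83). The signal of p27 itself, Cdkn1b, was under the authors' limit throughout, so no change of it can be set beside these.

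Of 12 genes that p53 is known to induce together with Cdkn1a, 3 were higher and 2 lower (median -0.089), a share near the 44.6% of all probe sets. Zmat3 (1.28) and Perp (0.76) rose, and Sesn1 (-0.99) and Fas (-0.93) fell. Of 20 regulators of the inhibitors, 3 were higher and 6 lower (median 0.028), again a share near that of all probe sets. They were led by Myc itself (4.04), by Klf4, an activator of Cdkn1a (-3.30), by Tbx2, a repressor of Cdkn2a (-2.64), and by Tgfb1, the ligand that induces Cdkn2b (-1.75). Of 17 imprinted genes listed beside Cdkn1c, 4 were higher and 6 lower (median -0.12). Meg3 (3.43), Dlk1 (2.73) and Phlda2 (1.69) rose, and Sgce fell (-2.93). Phlda2 lies in the same imprinted region of chromosome 7 as Cdkn1c, and of the other listed genes from there Nap1l4 (0.11), Ascl2 (0.04), Cd81 (-0.12) and Kcnq1 (-0.14) did not pass and Igf2 fell (-1.44).

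**Figure D4:**
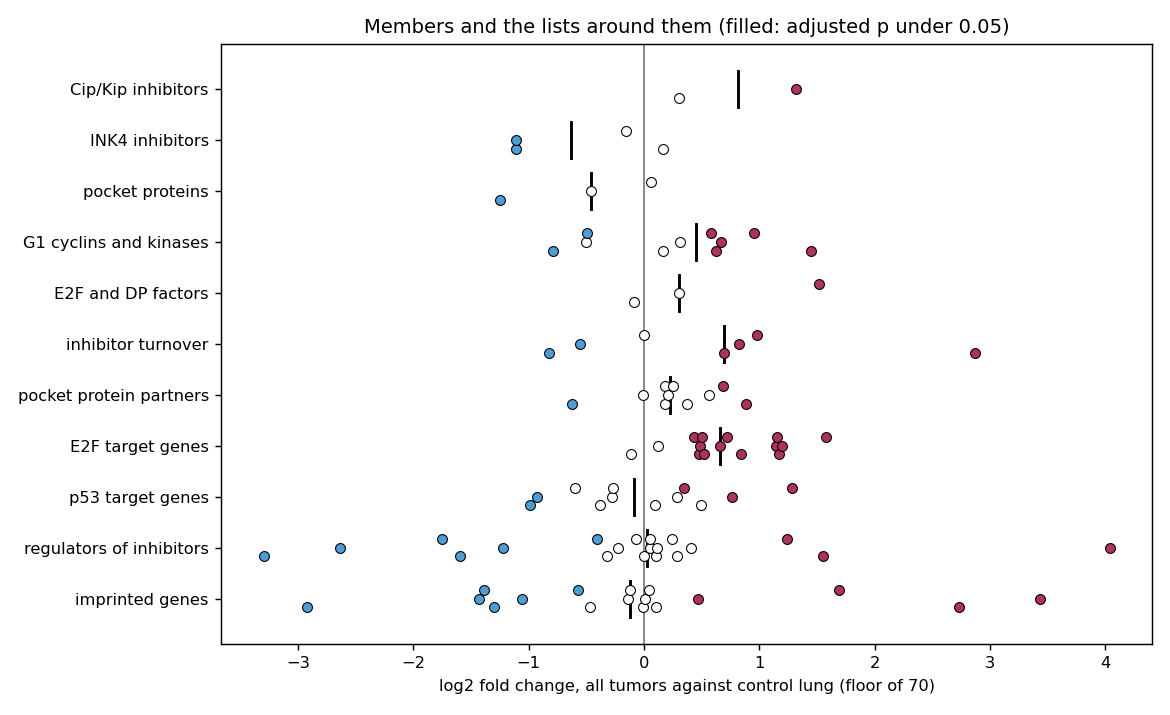
Log2 fold change in all tumors against control lung (horizontal axis, floor of 70) of each tested gene, 1 row per list, the members in the top 3 rows. Red points rose and blue points fell at an adjusted p under 0.05, open points did not pass, and the black bar is the median of a list. Nearly all E2F target genes lie to the right of 0, whereas INK4 and pocket genes lie mostly to the left.

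The lung and the tumors differed in their cells as well. Endothelial markers were lower for 19 of 20 and higher for none, and their summed signal was 28440 to 35180 in control lung and 3000 to 5123 in tumors. Markers of alveolar type 1 cells were lower for 5 of 5, of smooth muscle for 8 of 8, of cardiac muscle for 7 of 7, of fibroblasts and matrix for 8 of 17, of erythroid cells for 3 of 3, of lymphocytes for 4 of 7, of neutrophils for 4 of 6, of club and ciliated cells for 2 of 5 and of mesothelium for 2 of 3, with none higher in any of these lists. Several markers had mean tumor signals under the floor and could hardly be called higher. Among them were Myl7, Myl4, Myh6, Tnnt2 and Tnni3 of cardiac muscle (14.6 to 41.8). Others were Smtn, Des, Cnn1 and Myh11 of smooth muscle (14.7 to 44.2). Endothelial markers with such signals were Nos3, Calcrl, Ptprb, Icam2, Thbd and Tek (12.4 to 65.4). Macrophage markers were higher for 1 and lower for 3 of 8. Alveolar type 2 markers, which label the epithelium that the transgene targets, were higher for 1 (Sftpb) and lower for none of 5. Sums were taken over the 4 markers with a value on every array, which leaves out Sftpb. They were 15880 to 24610 in control lung and 15930 to 30080 in tumors. Proliferation markers were higher for 9 and lower for none of 10. Mean control signals of Mki67, Cdk1, Birc5, Top2a, Aurka, Bub1 and Prc1 were 10.5 to 66.2, under the floor. These genes could thus hardly be called lower. The summed signal of the proliferation markers was 626 to 779 in control lung and 1033 to 6672 in tumors. The part of these cells in the falls of Cdkn2b, Cdkn2d and Rb1 and in the rise of Cdkn1c was not tested.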

How the data were processed

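RNA of 4 control lungs and 10 tumors or tumor pools was measured on 14 arrays. The authors computed the deposited signal, a linear intensity, with MAS 5 and scaled each array to a target of 250. Arrays give no count of molecules, so precision is limited by how many there were. Groups and replicates were taken from the sample titles.

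The 12488 probe sets included 66 controls, which were dropped. Of the rest, 10833 had 1 symbol, 396 several and 1193 none. Symbols were updated through the gene identifiers of RefSeq (GRCm38.p6). Signals below 1e-06, all of them on the array of middle tumor 3 (3125 values), were treated as missing. Signals were floored at 70 and put on the log2 scale. The filter asked for a signal of 70 or more on 3 or more arrays, and a symbol with several probe sets was represented by the brightest on average. The 4 groups entered a single limma 3.58.1 fit (R 4.3.3) whose spread followed a trend, 7 comparisons were taken from this fit, and p-values were adjusted after Benjamini-Hochberg over 6914 probe sets. The fit was tested on simulated data. All tumors means the average of the 3 sizes. Second probe sets and values without the floor were read from a fit that held all 12422 probe sets. Correlations used 100000 permutations, two-sided. Intervals are 95%.

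Named were all members, up to 4 called genes with the largest change from each of 8 pathway lists, and the 2 genes most like each called member. Further genes of a list were named where they limit its reading. A further 13 cell type lists were given as counts. The members and the lists were chosen with earlier results of these data known. Alternatives were other floors, scalings, filters, spreads and tests, a replicate block and each array left out.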

Additional observations from a re-analysis of the deposited data

Results flagged for a closer look

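In middle tumors the Rb1 signal of middle tumor 1, at 93.6, stood apart from the other 3 tumors by 0.831 of the range of the group, above Dixon's 95% critical value for 4 samples. It was still below every control lung. Of 23 groups of 4 arrays checked for the members, this was the 1 that stood out, and chance gives about 1 in 20.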

How the results depend on the processing

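In all tumors against control lung, Cdkn1c, Cdkn2b, Cdkn2d and Rb1 stayed called in the same direction under every alternative run, with log2 fold changes of 1.19 to 1.45 for Cdkn1c, -1.22 to -0.997 for Cdkn2b and -1.76 to -0.92 for Cdkn2d. For Rb1 it was -1.47 to -1.15 on its main probe set and -0.12 on the second. Cdkn2a was called with no floor (1.18) and with a floor of 35 (0.96), and Rbl2 under 7 of 29 alternatives, with p between 0.000423 and 0.226 over all of them. In small tumors the count went from 4 to 2 without the filter and with all probe sets, as Cdkn1c and Rbl2 dropped out, and lay between 2 and 5 when 1 array was left out. In middle tumors it went from 3 to 5 with array weights and to 1, Rb1, with the methods' unpaired test after adjustment or the exact permutation test. The methods' test without adjustment, chosen after seeing the data as was pooling the tumors, called 1 member, Rbl2, in large against small tumors. The exact test gave 3 members in small and 3 in large tumors, without Rbl2 in small (exact p = 0.0857) and Cdkn2d in large tumors (exact p = 0.0857), where 0.0286 is the smallest p it can give, and was not run for large against small tumors, where it cannot go below 0.1. Same-numbered arrays had deviations correlated at -0.213 to 0.143, and other pairs at -0.39 to 0.56. No pairing by replicate number was seen, but this check cannot exclude a link between same-numbered arrays. The replicate block gave 5 members in all tumors, 5 in small, 4 in middle and 4 in large. Scaling to 1 median moved the median of all probe sets from 0.027 to 0.14 without a floor, and left the direction of the 4 called members as it was. Signals under 70 limit Cdkn1b, Cdkn2a, Cdkn2d and both Rb1 probe sets, and touch Rbl2 in 2 small tumor pools.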
